A study of Drosophila melanogaster with 15 samples.

Results

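CG5246 and CG33465 are 2 genes of the trypsin-like (S1) serine protease family of Drosophila melanogaster. They were selected on their read counts, out of 17481 genes counted, because both had almost no reads in control Kc167 cells and many reads after RNAi against DOM-A or TIP60. The levels in CTRL, DOM-A and TIP60 libraries are what selected the genes, so that these levels are given as a description and without a test. The selection set no numerical limit.

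The series comprises 15 RNA-seq libraries of Kc167 cells, a line of embryonic origin with features of blood cells, in 5 groups of 3 biological replicates. Cells received dsRNA against DOM-A, against TIP60, against DOM-B or against H2A.V, and CTRL cells received dsRNA against GST (replicates 1 and 3) or GFP (replicate 2). An effect of the dsRNA given to CTRL cells and an effect of replicate 2 cannot be told apart. DOM-A and DOM-B are splice isoforms of the remodeling ATPase DOMINO, TIP60 is a histone acetyltransferase, and H2A.V is the H2A variant of flies, encoded by His2Av. Drosophila virilis 79f7Dv3 cells were added to every sample before RNA extraction as a spike-in, and normalized read counts are reads divided by a factor from the D. virilis genes. In bulk RNA, a larger share of expressing cells and more RNA per cell cannot be told apart.

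S1 proteases are mostly secreted enzymes that are made as inactive precursors and are switched on by cleavage. Flies hold a large family of them, which comprises digestive enzymes and the members of the proteolytic cascades that lead to Toll signaling and to melanization. Part of the family has lost a residue of the catalytic triad and is called serine protease homologues. Serpins are the inhibitors that trap active proteases of this family.

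In the BDGP6 assembly, CG5246 (FBgn0038484) runs from 17136111 to 17137195 on chromosome 3R (plus strand). It has 1 annotated transcript with 1 exon of 1085 nt, which encodes 272 codons, and it overlaps no other gene. In RefSeq, a synonym of CG5246 numbers it among the proteases (SP). CG33465 (FBgn0053465) lies on the minus strand of chromosome 2R from 15819114 to 15821114, and its 1 transcript has 7 exons, 1610 nt of exonic sequence and 488 codons. A synonym numbers CG33465 among the protease homologues (SPH). No function has been assigned here to either gene, and no protein sequence was used to examine the catalytic residues. CG33465 lies inside the gene tun, which is transcribed from the opposite strand, and 0 of the 9 distinct exons of tun overlap an exon of CG33465.

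Reads on D. melanogaster genes summed to between 8662976 and 14679536 per library, and reads on D. virilis genes to between 1766397 and 3037203. Tip60 had between 34.5 and 46.9 normalized read counts in TIP60 RNAi libraries and between 242 and 275 in CTRL libraries. His2Av had 221, 1930 and 273 normalized read counts in H2A.V RNAi replicates 1 to 3, against 10303 to 12183 in CTRL libraries, so that replicate 2 kept more His2Av RNA than the other replicates. The counts per gene do not separate the isoforms of dom, and depletion of DOM-A and DOM-B could not be examined with them. Genes with at least 1 read in 6 libraries were tested (11424 genes). CG5246 had reads in 14 of the 15 libraries and CG33465 in 15, and the 6 libraries of DOM-A and TIP60 RNAi, in which both are high, were enough to let them pass this filter.

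After DOM-A RNAi, CG5246 had 258, 690.2 and 327 normalized read counts in replicates 1, 2 and 3, from 161, 728 and 355 reads. After TIP60 RNAi the normalized read counts were 196, 104 and 274. In CTRL cells they were 1.11, 0 and 7.37, from 1, 0 and 8 reads. All 6 DOM-A and TIP60 libraries thus lay far above every CTRL library, and the lowest TIP60 library was 14.0 times the highest CTRL library. The mean was 425 ± 232 (SD, n = 3) after DOM-A RNAi, 191 ± 85.1 (n = 3) after TIP60 RNAi and 2.83 ± 3.98 (n = 3) in CTRL. The log2 fold-change over CTRL, fitted with edgeR over all libraries, was 7.05 (SE 0.80) for DOM-A RNAi and 6.05 (SE 0.82) for TIP60 RNAi. Its exact size rests on few reads, because the CTRL libraries held 9 reads of CG5246 in sum (95% Poisson interval 4.12 to 17.1), 8 of them in replicate 3. Without CTRL replicate 3 it was 9.24 for DOM-A RNAi and 8.27 for TIP60 RNAi.

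CG33465 had 378, 1000.2 and 720.2 normalized read counts after DOM-A RNAi, from 236, 1055 and 783 reads. After TIP60 RNAi it had 245, 262 and 442 normalized read counts. In CTRL cells it had 4.44, 5.30 and 11.1, from 4, 5 and 12 reads. Again the 6 libraries of DOM-A and TIP60 RNAi did not overlap with CTRL, and the lowest of the TIP60 libraries was 22.2 times the highest CTRL library. The mean was 699.5 ± 311 (SD, n = 3) after DOM-A RNAi, 316 ± 110 (n = 3) after TIP60 RNAi and 6.93 ± 3.60 (n = 3) in CTRL. Over CTRL the fit gave a log2 fold-change of 6.79 (SE 0.60) with DOM-A RNAi and 5.59 (SE 0.60) with TIP60 RNAi. The 21 CTRL reads of CG33465 (95% Poisson interval 13.0 to 32.1) were spread over all 3 replicates. Counting intervals cover counting error only.

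**Figure D1:**
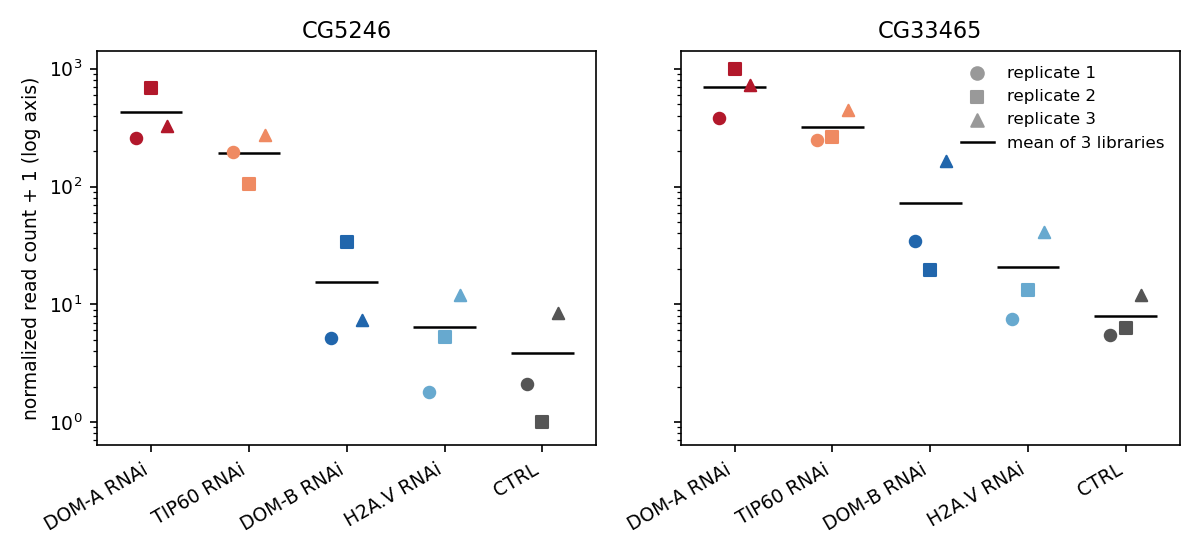
Normalized read count + 1 of CG5246 (left) and CG33465 (right) in each library on a log axis, by RNAi group. Symbols mark replicates 1 to 3 and lines the mean of 3 libraries. All DOM-A and TIP60 libraries lie above 100 normalized read counts, all CTRL libraries lie below 12, and the DOM-B and H2A.V libraries lie between or overlap with CTRL.

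Among the 11424 genes tested, 9 had a larger log2 fold-change than CG5246 after DOM-A RNAi and 15 had a larger one than CG33465. After TIP60 RNAi these numbers were 10 and 15. Of all genes tested, 19.4% passed an adjusted p-value of 0.01 in the comparison of DOM-A RNAi with CTRL and 13.3% in that of TIP60 RNAi with CTRL (edgeR quasi-likelihood test, Benjamini-Hochberg adjustment). Both comparisons use the same CTRL libraries.

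Levels of different genes can be compared only per length of exonic sequence. Per kb, CG5246 averaged 392 normalized read counts and CG33465 434 after DOM-A RNAi, which placed them at ranks 12 and 11 of 258 counted S1 family genes. After TIP60 RNAi the levels per kb were 176 and 196, at ranks 19 and 17. In CTRL they were 2.61 and 4.31, at ranks 71 and 65. Both genes were selected for high levels after DOM-A and TIP60 RNAi and low levels in CTRL. The higher ranks in these groups, and the percentiles below, follow from that selection and are descriptions. Among all genes tested, the level of CG5246 per kb stood at percentile 79.5 after DOM-A RNAi and at percentile 22.1 in CTRL. That of CG33465 stood at percentile 81.6 after DOM-A RNAi and at percentile 26.0 in CTRL.

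After RNAi against DOM-B or H2A.V, each gene lay below its own level in every DOM-A and TIP60 library. CG5246 had 4.17, 32.7 and 6.42 normalized read counts after DOM-B RNAi and 0.81, 4.31 and 11.1 after H2A.V RNAi. Of the DOM-B libraries only replicate 2, with 35 reads, lay above the highest CTRL library (7.37), and the others held 4 and 7 reads. Of the H2A.V libraries only replicate 3, with 13 reads, lay above it. The log2 fold-change of CG5246 over CTRL was 2.17 (SE 1.05) for DOM-B RNAi and 0.76 (SE 1.21) for H2A.V RNAi. It dropped to 0.83 for DOM-B RNAi without DOM-B replicate 2, and to −0.22 for H2A.V RNAi without H2A.V replicate 3.

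CG33465 had 33.4, 18.7 and 162 normalized read counts after DOM-B RNAi, from 32, 20 and 177 reads. After H2A.V RNAi it had 6.48, 12.2 and 40.0. The lowest DOM-B library was 1.69 times the highest CTRL library (11.1), whereas the H2A.V libraries overlapped with CTRL. The share of all genes with such a separation of DOM-B from CTRL libraries was not determined, and the selection used the CTRL libraries. The log2 fold-change over CTRL was 3.18 (SE 0.65) for DOM-B RNAi and 1.39 (SE 0.74) for H2A.V RNAi. In the same order, 5.07% and 12.7% of all genes tested were called in these comparisons.

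The selection did not use the difference between DOM-A and TIP60 RNAi, which was therefore tested. CG5246 was 1.01 higher on the log2 scale after DOM-A than after TIP60 RNAi (95% interval −0.02 to 2.03), and the difference did not pass the test (adjusted p = 0.444, edgeR). CG33465 was 1.19 higher (95% interval 0.40 to 1.99), with an adjusted p of 0.251 in edgeR. In both genes the value was higher after DOM-A RNAi in 3 of 3 replicates, and the ranges of the groups overlapped. Replicate 2 stood apart, with differences of 2.72 for CG5246 and 1.93 for CG33465, whereas replicates 1 and 3 gave between 0.25 and 0.70. Without DOM-A replicate 2 the difference was 0.48 for CG33465, and without TIP60 replicate 2 it was 0.36 for CG5246. Only 0.0175% of all genes tested were called in this comparison.

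The difference between DOM-B and H2A.V RNAi was also free of the selection. CG33465 was 1.79 higher on the log2 scale after DOM-B than after H2A.V RNAi (95% interval 0.76 to 2.82), in 3 of 3 replicates. It did not pass the threshold of 0.01 (adjusted p = 0.0241, edgeR), but it did with DESeq2 (adjusted p = 0.0021). With TMM normalization on the D. melanogaster counts it was 1.53 (adjusted p = 0.0649, edgeR). The median over all genes was 0.30 in this comparison with D. virilis factors and −0.01 with TMM. The groups overlapped, and the value depended on DOM-B replicate 3, without which it was 0.85 (adjusted p = 0.294, edgeR). Without DOM-A replicate 2 or without DOM-B replicate 2 it passed, with log2 differences of 1.74 and 2.29 and adjusted p-values of 0.00702 and 0.00477 (edgeR). Without H2A.V replicate 2, the library with more His2Av RNA, it was 1.65 (adjusted p = 0.0936, edgeR). CG5246 was 1.41 higher after DOM-B than after H2A.V RNAi (95% interval −0.33 to 3.15, adjusted p = 0.271, edgeR), in 2 of 3 replicates, and without DOM-B replicate 2 the difference was 0.05. In this comparison 11% of all genes tested were called, 10.2% higher and 0.797% lower after DOM-B RNAi.

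**Figure D2:**
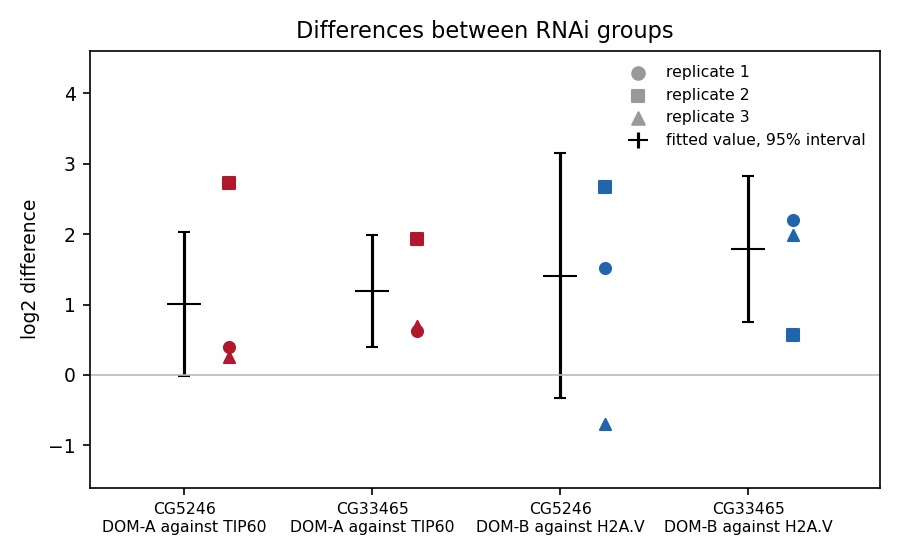
Log2 difference of CG5246 and CG33465 between DOM-A and TIP60 RNAi (left pair) and between DOM-B and H2A.V RNAi (right pair). Black marks are the fitted values with 95% intervals, and colored symbols are the differences of replicates 1 to 3 on log2(normalized read count + 1). Replicate 2 lies highest in 3 of the 4 differences, and replicate 3 of CG5246 lies below 0 for DOM-B against H2A.V.

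Both genes were selected for the same pattern across the groups, which sets a high correlation over all libraries. Over the 15 libraries, Pearson's r of log2(normalized read count + 1) was 0.92 and Spearman's rho was 0.92, which describes libraries that share 5 groups. The deviations from the group means had an r of 0.31. In DOM-A libraries CG33465 had 1.47, 1.45 and 2.21 reads per read of CG5246, and in TIP60 libraries 1.25, 2.53 and 1.62. This ratio was narrow wherever both genes had many reads. In DOM-B libraries it was 8.0, 0.571 and 25.3, so that DOM-B replicate 2 held more reads of CG5246 and DOM-B replicate 3 far more reads of CG33465. CG33465 was highest in replicate 3 in 4 of the 5 groups, all but DOM-A, and CG5246 in 3 of the 5. Replicate 1 was highest in none of the groups.

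**Figure D3:**
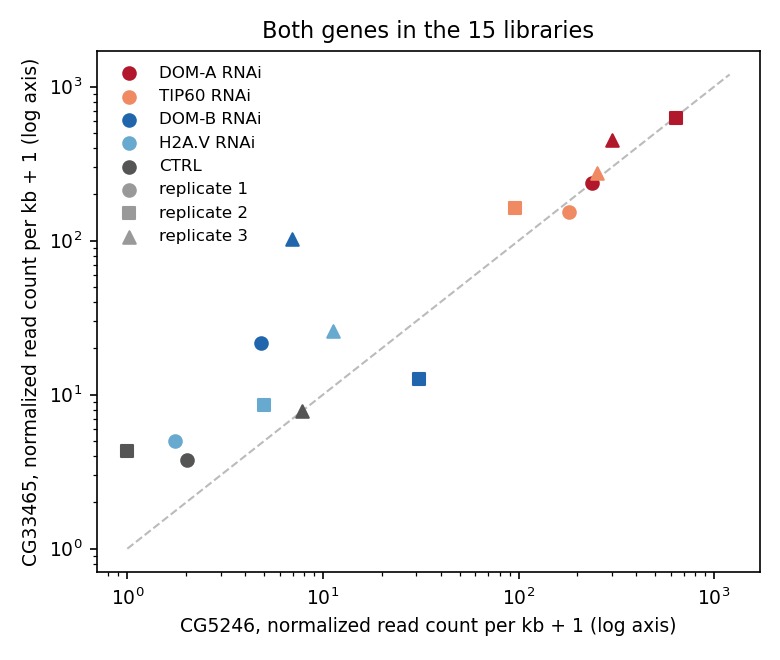
Normalized read count per kb + 1 of CG33465 against that of CG5246 in the 15 libraries, on log axes. Colors mark the RNAi groups, symbols the replicates, and the dashed line equal levels. The DOM-A and TIP60 libraries lie near the line, whereas DOM-B replicates 2 and 3 lie on opposite sides of it.

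CG5246 sits in a row of related genes. Of the 10 annotated genes on either side, 8 belong to the S1 family, namely CG17477, CG31269, CG31265, CG17475, CG4053, CG31266, CG31267 and CG5255. CG5255 starts 698 bp after the end of CG5246, and CG31267 ends 828 bp before its start. All 8 genes together had 25 reads in the 15 libraries, against 1887 reads of CG5246, and the DOM-A libraries held 8 of these 25 reads. Of these 8 genes 1, CG31267, had enough reads to be tested. It had 1.60, 1.90 and 1.84 normalized read counts after DOM-A RNAi and 0 in each CTRL library, and it was not called (adjusted p = 0.0704, edgeR). Among the 9 S1 genes of this row, CG5246 alone had more than 8 reads. The reads were counted only where they had 1 position in the genome, so that reads shared by near-identical copies would be lost.

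Of the other neighbors of CG5246, 7 were tested. After DOM-A RNAi, CG5292 rose by 0.68 on the log2 scale (adjusted p = 0.00138) and m-cup by 0.51 (adjusted p = 0.00793), and Det fell by 0.54 (adjusted p = 0.00333, edgeR). These genes were 37.5% of the 8 tested neighbors of CG5246, beside 19.4% of all genes called. After TIP60 RNAi 0 of the 8 tested neighbors passed (13.3% of all genes called), with CG5292 (adjusted p = 0.0150) and m-cup (adjusted p = 0.0276, edgeR) closest to the threshold.

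No S1 family gene adjoins CG33465, and the nearest of them among these neighbors, CG30083, lies 106470 bp away. The closest gene that moved in the same direction was Zasp52, which encodes a PDZ and LIM domain protein of muscle Z-discs and integrin adhesion sites. Zasp52 lies 2110 bp away and had 707, 1161 and 784 normalized read counts after DOM-A RNAi, 626, 154 and 656 after TIP60 RNAi and 56.7, 72.0 and 82.0 in CTRL. It rose by 3.66 on the log2 scale after DOM-A RNAi (adjusted p = 0.00016) and by 2.79 after TIP60 RNAi (adjusted p = 0.0016, edgeR). The surrounding gene tun had 367, 413 and 359 normalized read counts after DOM-A RNAi and 394, 368 and 431 in CTRL, and did not pass the test (log2 fold-change −0.06, adjusted p = 0.802, edgeR). Of the 13 neighbors of CG33465 tested, 4 were called higher after DOM-A RNAi (8.96% of all genes) and 3 after TIP60 RNAi (4.88% of all genes), and 0 were called lower (10.4% and 8.43% of all genes).

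Besides Zasp52, these were S1 genes of a tandem group between 121104 and 123882 bp away on the same arm. CG33460, named as a protease homologue, had 1848, 1777 and 1263 normalized read counts after DOM-A RNAi, 1255, 902 and 908 after TIP60 RNAi and at most 25.8 in CTRL. CG33461 had 154, 143 and 109 after DOM-A RNAi, 67.1, 59.7 and 73.3 after TIP60 RNAi and at most 1.11 in CTRL. The log2 fold-change over CTRL was 6.45 for CG33460 and 7.38 for CG33461 after DOM-A RNAi, and 5.80 and 6.39 after TIP60 RNAi, with adjusted p-values of at most 2.52e-05 (edgeR). CG33462, the next gene, had 26 reads after DOM-A RNAi, 21 after TIP60 RNAi and 0 in CTRL, which makes it at least 8.61-fold and 6.85-fold higher against a floor of 3 reads over the CTRL group. It was called after DOM-A RNAi and was not called after TIP60 RNAi.

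**Figure D4:**
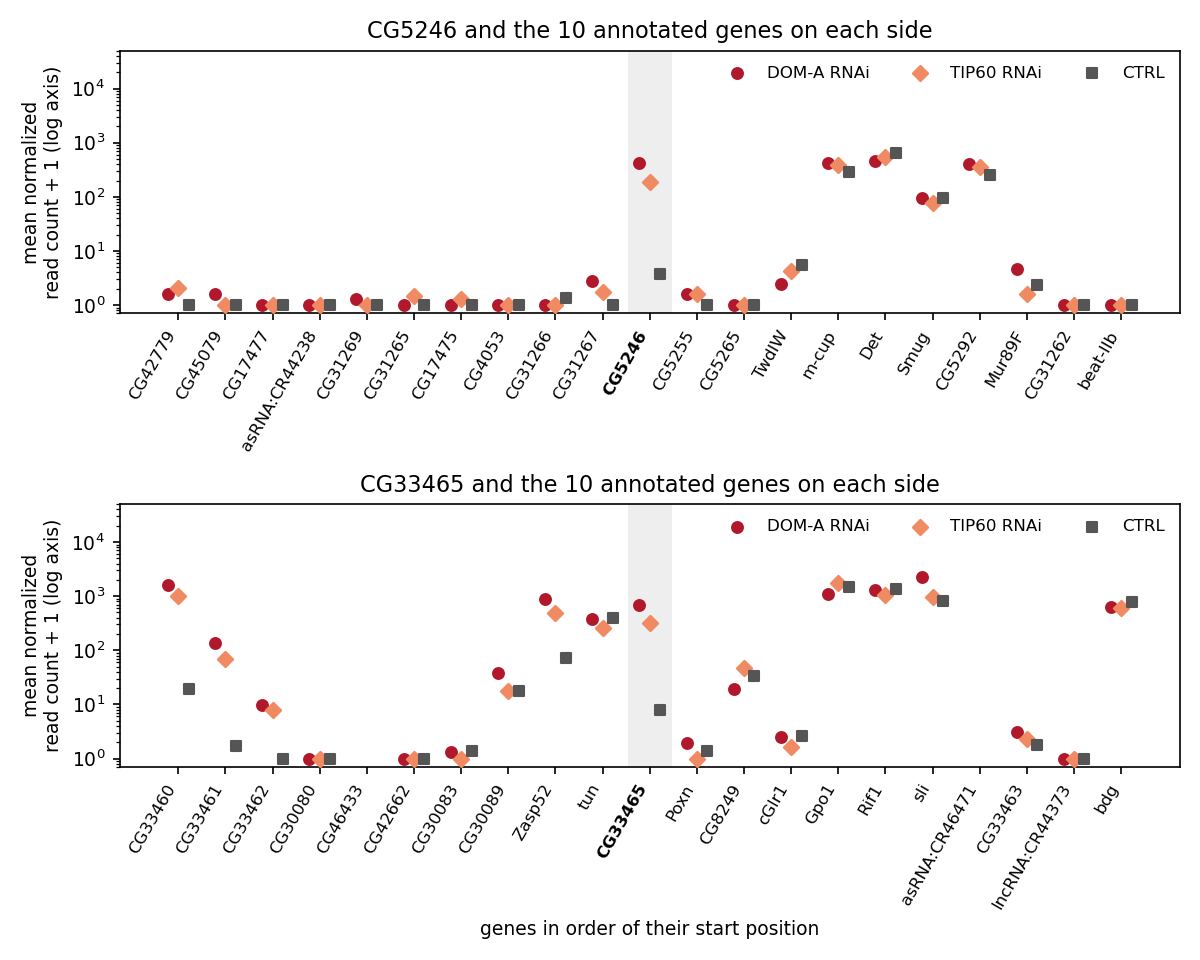
Mean normalized read count + 1 on a log axis of CG5246 (top) and CG33465 (bottom, both shaded) and of the 10 annotated genes on each side in order of start position, after DOM-A RNAi, after TIP60 RNAi and in CTRL (n = 3 each). The S1 genes to the left of CG5246 stay near 0, while CG33460, CG33461, CG33462 and Zasp52 have higher levels than CTRL beside CG33465. Genes without points were not among the genes counted.

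The S1 family as a whole was examined with the 256 other counted genes that carry an SP or SPH number. Of these, 62 had no read in any library and 118 were tested. After DOM-A RNAi 23 rose and 6 fell (24.6% of those tested, beside 19.4% of all genes), and after TIP60 RNAi 20 rose and 4 fell (20.3%, beside 13.3% of all genes). The share that rose was 19.5% after DOM-A RNAi, beside 8.96% of all genes, and 16.9% after TIP60 RNAi, beside 4.88% of all genes. Of all genes 10.4% fell after DOM-A RNAi and 8.43% after TIP60 RNAi. After DOM-B RNAi 9 rose and 2 fell (9.32%, beside 5.07% of all genes, of which 2.74% rose and 2.33% fell), and after H2A.V RNAi 4 rose and 6 fell (8.47%, beside 12.7% of all genes, of which 1.23% rose and 11.5% fell). Leaving out CTRL replicate 1, CTRL replicate 3 or DOM-B replicate 1 lowered the number called after DOM-B RNAi to 5, 6 or 7, and leaving out H2A.V replicate 1 lowered that after H2A.V RNAi to 5. With TMM normalization on the D. melanogaster counts the split after H2A.V RNAi was 6 higher and 5 lower. The median log2 fold-change of the list was 0.45, 0.48, 0.42 and 0.19 after DOM-A, TIP60, DOM-B and H2A.V RNAi, beside 0.03, −0.04, 0.06 and −0.22 over all genes. With genes without reads in a group set to the bound that 3 reads allow, the median after DOM-A RNAi was 0.27. These comparisons share the CTRL libraries.

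CG33465 belongs by name to the serine protease homologues. Of 34 tested SPH genes, 12 rose and 0 fell after DOM-A RNAi (35.3% called, beside 19.4% of all genes). After TIP60 RNAi 10 rose and 0 fell (29.4%, beside 13.3% of all genes). With TMM normalization or with total D. virilis counts 1 SPH gene fell after DOM-A RNAi. The median log2 fold-change of the SPH genes was 1.54 after DOM-A RNAi and 1.32 after TIP60 RNAi, or 1.04 and 0.96 with genes without reads in a group at their bound. Of 84 tested SP genes, to which CG5246 belongs by name, 11 rose and 6 fell after DOM-A RNAi (20.2% called, near the 19.4% of all genes). After TIP60 RNAi 10 rose and 4 fell (16.7%, beside 13.3% of all genes). Of all genes, 8.96% rose and 10.4% fell after DOM-A RNAi, and 4.88% rose and 8.43% fell after TIP60 RNAi. The median of the SP genes was 0.11 and 0.10, beside 0.03 and −0.04 over all genes. The difference between SPH and SP genes was not tested.

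CG4259, the second highest family member per kb after DOM-A RNAi, had 6190, 6428 and 5024 normalized read counts after DOM-A RNAi, 5788, 5555 and 4738 after TIP60 RNAi and 328, 1016 and 780 in CTRL. Each CTRL library thus held at least 328 normalized read counts of CG4259. CG33459 had 136, 42.7 and 131 after DOM-A RNAi and 2.22, 1.06 and 15.7 in CTRL, and rose by 4.19 on the log2 scale (adjusted p = 5.67e-05, edgeR). CG34436 rose by 3.97 after DOM-A RNAi and by 4.47 after TIP60 RNAi, with adjusted p-values of 9.62e-05 and 6.26e-05 (edgeR). CG12133 rose after all 4 knock-downs, by 3.15 after DOM-A, 3.77 after TIP60, 5.08 after DOM-B and 4.19 after H2A.V RNAi (adjusted p-values of at most 0.000163, edgeR). Its rise was larger after DOM-B and H2A.V RNAi than after DOM-A and TIP60 RNAi. In both members, which were not tested over CTRL, the fitted log2 fold-changes had the reverse order.

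**Figure D5:**
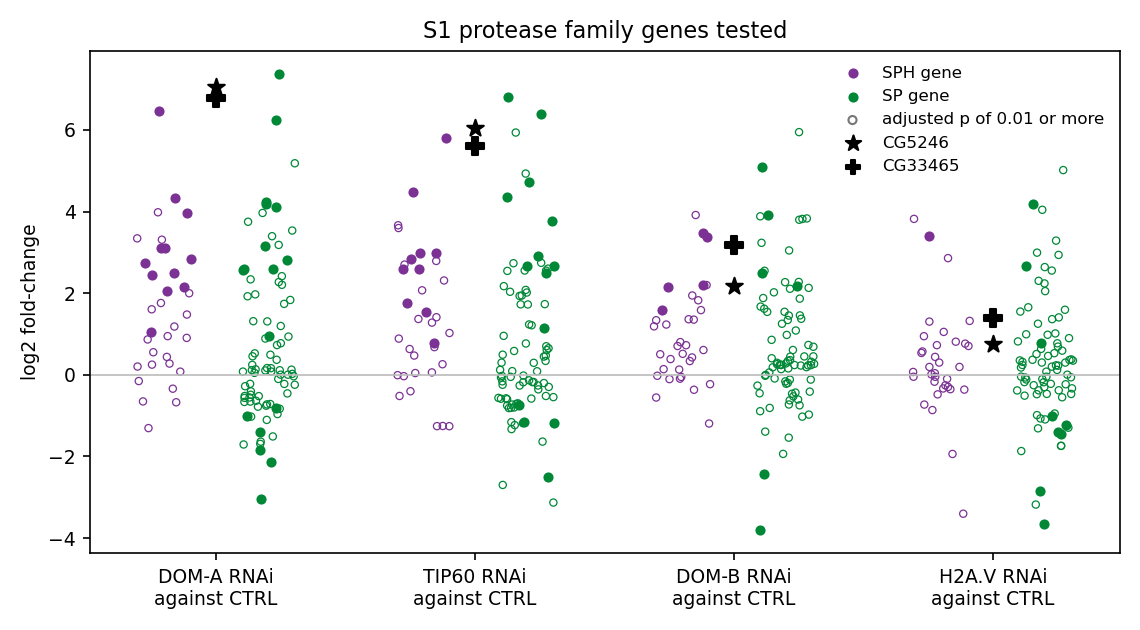
Log2 fold-change over CTRL of 34 SPH genes (purple) and 84 SP genes (green) tested, after RNAi against DOM-A, TIP60, DOM-B and H2A.V. Filled points passed an adjusted p-value of 0.01, and black symbols mark CG5246 and CG33465, which were chosen for this pattern. Both lie near the top after DOM-A and TIP60 RNAi and close to the bulk of the family after H2A.V RNAi.

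Proteases with established names and roles form a list of their own. Jon65Ai, of the Jonah family of digestive enzymes, had 130, 17.1 and 257 normalized read counts after DOM-A RNAi and 2.22, 4.24 and 13.8 in CTRL, and rose by 4.22 on the log2 scale (adjusted p = 0.000316, edgeR). scaf (scarface), a protease homologue that acts in epithelial closure of the embryo, rose by 2.46 after DOM-A RNAi, 1.76 after TIP60 RNAi and 1.58 after DOM-B RNAi (adjusted p-values of at most 0.00241, edgeR). Of 21 tested genes on the list of named proteases, 3 rose and 2 fell after DOM-A RNAi (23.8% called, near the 19.4% of all genes), and 2 rose and 3 fell after TIP60 RNAi (23.8%, beside 13.3% of all genes). For DOM-B RNAi 2 rose and 0 fell (9.52%, beside 5.07%), and for H2A.V RNAi 0 rose and 1 fell (12.7% of all genes called).

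Proteases of the cascades to Toll and to melanization, and spz, the gene of the Toll ligand, were listed separately. Of 11 tested genes of this list, 0 rose and 2 fell after DOM-A RNAi (18.2% called, beside 19.4% of all genes), and 0 rose and 3 fell after TIP60 RNAi (27.3%, beside 13.3% of all genes). ndl (nudel), which starts the dorsoventral cascade of the egg, had 20.8, 16.1 and 37.7 normalized read counts after DOM-A RNAi and 246, 200.2 and 171 in CTRL, and fell by 3.04 on the log2 scale (adjusted p = 2.08e-06, edgeR). grass, a protease of the immune branch, fell by 1.85 after DOM-A RNAi and by 1.17 after TIP60 RNAi (adjusted p-values of 1.24e-05 and 0.000481, edgeR). modSP, which acts upstream of grass, fell by 0.73 after TIP60 RNAi (adjusted p = 0.00192, edgeR) and did not pass over CTRL after the other knock-downs. Its difference between DOM-A and TIP60 RNAi was 0.98 (adjusted p = 0.0263, edgeR). After H2A.V RNAi 1 of the genes of this list fell, gd (gastrulation defective), which made 9.09% called, beside 12.7% of all genes. After DOM-B RNAi 0 passed, beside 5.07% of all genes.

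Of 17 tested serpins, 1 rose and 4 fell after DOM-A RNAi, where 8.96% of all genes rose and 10.4% fell. After TIP60 RNAi 2 rose and 3 fell, where 4.88% of all genes rose and 8.43% fell. Spn27A, an inhibitor of melanization and of the dorsoventral cascade, had 691, 543 and 533 normalized read counts after DOM-A RNAi, 709, 566 and 544 after TIP60 RNAi and 71.1, 89.0 and 87.6 in CTRL. It rose by 2.81 and 2.86 on the log2 scale (adjusted p-values of at most 7.54e-07, edgeR). Spn42De fell by 3.45 after DOM-A RNAi and by 2.85 after TIP60 RNAi, and Spn31A by 2.27 and 1.47 (adjusted p-values of at most 0.00244, edgeR). After DOM-B RNAi 2 serpins rose and 1 fell, where 2.74% of all genes rose and 2.33% fell. After H2A.V RNAi 2 rose and 2 fell, where 1.23% of all genes rose and 11.5% fell.

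Most blood cell markers were higher after DOM-A and TIP60 RNAi than in CTRL, and their sum was also higher after DOM-B RNAi. Kc167 cells already express most of them, and 7 of the 11 averaged at least 100 normalized read counts in CTRL. Their sum over 11 genes was 96174, 89552 and 83041 normalized read counts after DOM-A RNAi, 92780, 30629 and 73462 after TIP60 RNAi, 48298, 56164 and 44344 after DOM-B RNAi, 28335, 16990 and 36208 after H2A.V RNAi and 27992, 22413 and 26521 in CTRL. The lowest TIP60 library for these markers, replicate 2, was also the lowest TIP60 library for CG5246, but the lowest TIP60 library for CG33465 was replicate 1, which had the highest marker sum of the TIP60 libraries. In DOM-A libraries, replicate 1 had the highest marker sum and the lowest level of both genes. Without the marker Hml, the sum was 36611 to 52862 in DOM-A libraries and 13498 to 29259 in DOM-B libraries. It was 50990, 13910 and 31531 in TIP60 replicates 1 to 3, 8910 to 10707 in H2A.V libraries and 10703 to 12663 in CTRL. TIP60 replicate 2 thus lay close to CTRL without Hml. Of the 11 markers, 9 rose and 0 fell after DOM-A RNAi, where 8.96% of all genes rose and 10.4% fell. After TIP60 RNAi 8 markers rose and 0 fell, where 4.88% of all genes rose and 8.43% fell. After DOM-B RNAi 0 passed the test (5.07% of all genes called). After H2A.V RNAi 1 marker rose and 1 fell, where 1.23% of all genes rose and 11.5% fell. PPO1, a prophenoloxidase of crystal cells, had 0 reads in CTRL and 14.4, 21.8 and 16.6 normalized read counts after DOM-A RNAi. The part of a shift in cell type in the levels of CG5246 and CG33465 was not tested. The midgut markers stayed low, with sums of at most 6.64 after DOM-A or TIP60 RNAi and at most 12.7 in CTRL, and alphaTry, betaTry and Jon65Aiii had no reads in these 3 groups. Fat body markers summed to at most 8.35 in any library.

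Genes among the 5 whose profile over the 15 libraries was most like that of CG5246 were CG33460 (r = 0.96), LManI, a lysosomal mannosidase (r = 0.96), CG33461 (r = 0.96) and M7BP (r = 0.95). For CG33465 they included PPO2, a prophenoloxidase of crystal cells (r = 0.96), LManI (r = 0.95), Gclc, the catalytic subunit of the first enzyme of glutathione synthesis (r = 0.95), and sick (r = 0.95). PPO2 had 237, 159 and 315 normalized read counts after DOM-A RNAi, 56.8, 95.6 and 159 after TIP60 RNAi and at most 2.12 in CTRL. CG33465 ranked 34th for CG5246, and CG5246 25th for CG33465, among 8194 genes with a mean of at least 10 normalized read counts. These correlations describe 15 libraries in 5 groups.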

How the data were processed

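RNA-seq libraries from Kc167 cells treated with dsRNA (5 groups, 3 biological replicates each) were analysed. The authors mapped the reads with STAR 2.5.3a (dm6 for D. melanogaster) and separately to D. virilis, kept reads with 1 position, and deposited raw read counts per gene, without regard to strand and for each strand. The counts of the strand that held most reads were used. The opposite strand held 2.66% to 3.31% of gene reads. Reads on no gene (4.74% to 6.99% in D. melanogaster, 26.9% to 37.4% in D. virilis) were left out. Depth is given by gene reads, and 1 read of CG5246 or CG33465 is the smallest step of its level.

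Genes with at least 1 read in 6 libraries were tested (11424 genes). Library sizes came from median-of-ratios size factors of 8941 D. virilis genes. edgeR 4.0.16 (R 4.3.3, limma 3.58.1) was run with its quasi-likelihood test on all libraries, with replicate number as a block as in the methods of the study, and Benjamini-Hochberg adjustment over all genes tested (threshold 0.01). Intervals of log2 fold-changes use the SE of the same fit and a normal approximation, so that they are somewhat narrower than the quasi-likelihood test would give. Over genes, deviations from the group means of same-numbered samples correlated with a mean of 0.219 (30 pairs, 24 of them over 0.1). The mean for 60 pairs of other numbers was −0.109. Deviations sum to 0 within each group, so that this second mean largely follows from the first and is no separate evidence. As the lowest same-numbered pair had 0.040, the numbers are treated as the study's batch term and not as shown pairs. The scripts were tested on simulated data.

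CG5246 and CG33465 and the gene lists were chosen with earlier results of these data known. Named genes are both members, the targeted genes, the 10 annotated genes on each side of each member, the 5 most alike by Pearson's r of log2(normalized read count + 1) (1 of them is not reported here), and from each list up to 5 called genes with the largest change and a mean of at least 10. Genes of the blood marker and Toll lists were named from those lists, and CG4259 and CG30083 outside the rule were chosen after their values were seen. The S1 family list, by SP or SPH numbers among RefSeq synonyms, was added after seeing the data. Positions come from an annotation of BDGP6 newer than that of the counts (17343 of 17481 identifiers matched). Alternatives were TMM on D. melanogaster counts, total D. virilis counts, unstranded counts, no filter beyond 1 read, a mean count of at least 10, no replicate block, DESeq2 1.42.0, only the groups compared, a threshold of 0.05 and leaving out each library.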

Additional observations from a re-analysis of the deposited data

Results flagged for a closer look

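Reads on the opposite strand, which are outside the counts used, were found at both genes. There were 0 in CTRL, where CG5246 and CG33465 had 9 and 21 reads on their own strand, too few to expect any at the shares below. H2A.V libraries also held 0 at both genes. CG5246 had 7 such reads after DOM-A RNAi and 1 after TIP60 RNAi, beside 1887 reads on its own strand in all libraries (8 reads, or 0.422%). CG33465 had 6 in DOM-A libraries and 2 in DOM-B libraries, beside 3309 reads on its own strand (8 reads, or 0.241%). Both shares lie below the 2.66% to 3.31% of all gene reads on the opposite strand.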

How the results depend on the processing

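The log2 fold-changes of CG5246 and CG33465 over CTRL kept their direction under all alternatives but 1, CG5246 after H2A.V RNAi without H2A.V replicate 3 (−0.22). With total D. virilis counts CG33465 was at 5.44 for TIP60 RNAi. CG33465 in DOM-B against H2A.V passed with DESeq2 (1.79, adjusted p = 0.0021) and at a threshold of 0.05 (1.79). With no replicate block it was 1.89 (adjusted p = 0.0851, edgeR), and with TMM 1.53 (adjusted p = 0.0649, edgeR). No call of either gene changed when the block was left out. Leaving out each library, the log2 values over CTRL spanned 6.32 to 9.24, 5.35 to 8.27, 0.83 to 4.36 and −0.22 to 2.97 for CG5246 and 6.12 to 7.33, 5.34 to 5.86, 2.24 to 3.69 and 0.87 to 1.56 for CG33465 (DOM-A, TIP60, DOM-B and H2A.V RNAi). DOM-A against TIP60 spanned 0.36 to 1.56 for CG5246 and 0.48 to 1.61 for CG33465, and DOM-B against H2A.V 0.05 to 2.36 and 0.85 to 2.33. TMM moved the median of all genes by 0.24 for H2A.V against CTRL and by −0.30 for DOM-B against H2A.V, where the S1 split became 5 higher and 4 lower (9 and 0 with D. virilis factors). Total D. virilis counts moved it by −0.15 for TIP60, 0.15 for DOM-B and 0.20 for H2A.V RNAi.

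Numbers of list genes called follow, against 5, 5, 2 and 1 for named proteases, 29, 24, 11 and 10 for the S1 family, 5, 5, 3 and 4 for serpins and 7, 3, 2 and 3 for neighbors over CTRL (DOM-A, TIP60, DOM-B, H2A.V), then 0, 0, 0 and 0 of these lists for DOM-A against TIP60 and 3, 9, 1 and 4 for DOM-B against H2A.V. Without the replicate block, named proteases had 3 (DOM-A) and 2 (TIP60), serpins 3 (TIP60), 1 (DOM-B) and 2 (H2A.V) and neighbors 1 (DOM-B). With only the groups compared, named proteases had 6 (DOM-B) and 4 (H2A.V), the S1 family 24 and 22, serpins 5 and 9, and neighbors 4 (DOM-B), and each list 0 for DOM-B against H2A.V. At a threshold of 0.05, named proteases had 4 (DOM-B), 3 (H2A.V) and 1 (DOM-A against TIP60), the S1 family 21 (DOM-B), 21 (H2A.V), 1 (DOM-A against TIP60) and 22 (DOM-B against H2A.V), serpins 8 (H2A.V) and 4 (DOM-B against H2A.V), and neighbors 7 (TIP60), 4 (DOM-B) and 8 (DOM-B against H2A.V). With DESeq2 or no filter, named proteases and the S1 family had 1 for DOM-A against TIP60, the S1 family 14 and serpins 2 for DOM-B against H2A.V, and with DESeq2 neighbors had 5 (TIP60) and 7 (DOM-B against H2A.V). TMM gave neighbors 6 (TIP60), a mean of at least 10 gave 5, and both gave serpins 2 (DOM-B against H2A.V). Total D. virilis counts gave serpins 2 (H2A.V), and unstranded counts named proteases 1 (DOM-B). Leaving out each library, named proteases had 4 to 6, 3 to 6, 1 to 4, 1 to 1, 0 to 1 and 1 to 4 (in the order above), the S1 family 23 to 31, 16 to 28, 5 to 15, 5 to 13, 0 to 1 and 1 to 15, serpins 4 to 5, 2 to 5, 1 to 3, 2 to 6, 0 to 0 and 1 to 2, and neighbors 4 to 7, 2 to 6, 0 to 3, 2 to 3, 0 to 0 and 2 to 6. The S1 count of 1 was without H2A.V replicate 1.

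Over all genes, 2214, 1520, 579 and 1456 were called over CTRL (DOM-A, TIP60, DOM-B, H2A.V), 2 for DOM-A against TIP60 and 1261 for DOM-B against H2A.V. Without the block these were 1422, 924, 203, 912, 1 and 729, and at 0.05 they were 3674, 2798, 1489, 2845, 4 and 2864. DESeq2 called 1143 (DOM-B), 2217 (H2A.V), 58 (DOM-A against TIP60) and 2144 (DOM-B against H2A.V), and only the groups compared gave 1662, 2279, 1 and 2. TMM gave 762 (H2A.V) and 671 (DOM-B against H2A.V), and total D. virilis counts 598 (H2A.V). No filter gave 4 and a mean of at least 10 gave 1 for DOM-A against TIP60. Without CTRL replicate 1 the counts were 1219, 683 and 109 for DOM-A, TIP60 and DOM-B RNAi, and without H2A.V replicate 1 they were 531 (H2A.V) and 158 (DOM-B against H2A.V). The cause of these shifts was not tested. By Spearman's rho 2 of the 5 most alike genes of each member remained, and 5 with a pseudocount of 0.5. An alternative with protein motifs was not run. In CTRL and H2A.V libraries, counts of at most 13 reads of CG5246 limit the precision.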

Other observations

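Markers of other cell types had their own order among the groups. The sum of 2 germline markers, vas, an RNA helicase, and bam, a differentiation factor, was between 141 and 216 normalized read counts after DOM-A RNAi, between 143 and 320 after TIP60 RNAi, between 674 and 926 after DOM-B RNAi, between 712 and 848 after H2A.V RNAi and between 420 and 459 in CTRL. The DOM-A and TIP60 libraries, in which CG5246 and CG33465 were high, thus lay below CTRL for this sum, and the DOM-B and H2A.V libraries lay above it. Only 1 of the 2 genes averaged at least 100 normalized read counts in CTRL, so that the sum need not describe both genes. The sum of 3 neuronal markers (elav, nSyb and brp) was 545 to 708 in DOM-A libraries, 426 to 661 in TIP60 libraries, 1196 to 1224 in DOM-B libraries, 766 to 1454 in H2A.V libraries and 774 to 1089 in CTRL. The sum of 3 muscle markers was 75.3 to 119 in DOM-A libraries, 63.3 to 112 in TIP60 libraries, 60.6 to 120.1 in DOM-B libraries, 118 to 196 in H2A.V libraries and 76.7 to 92.2 in CTRL, although Zasp52, a gene known from muscle, was high after DOM-A RNAi. These sums are descriptions of 3 libraries a group and were not tested.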
